A study of Homo sapiens with 6 samples.

Results

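The miR-17-92 cluster is a group of miRNA hairpins on human chromosome 13 that are cut from a single primary transcript, and 10 of its mature products were followed here from whole cells into the extracellular vesicles (EV) that these cells release. The 10 were taken by name from the 2576 mature miRNAs listed in each count table: hsa-miR-17-5p, hsa-miR-17-3p, hsa-miR-18a-5p, hsa-miR-18a-3p, hsa-miR-19a-3p, hsa-miR-20a-5p, hsa-miR-20a-3p, hsa-miR-19b-1-5p, hsa-miR-19b-3p and hsa-miR-92a-1-5p, with the prefix hsa left out from here on. Libraries of small RNA were made from MIO-M1, an established human Müller glial cell line (Müller glia are the radial glia of the retina) labelled WT for genotype and grown in medium with foetal calf serum. The 3 whole cell samples were RNA of cell pellets at passages 22, 24 and 26, and the 3 EV samples were vesicles pelleted from conditioned medium at passages 23, 25 and 27. In the order of passages the whole cell libraries are called WC1, WC2 and WC3 and the vesicle libraries EV1, EV2 and EV3 (replicates 1, 2 and 3 in the plots), and a shared number implies no pairing. All samples are passages of 1 line, so that p-values measure the spread between these passages only.

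Before EV were collected the cells had been washed and moved to serum-free (labels) or vesicle-depleted (methods) medium, and the EV were treated with RNase A before extraction. The labels and the methods also differ in the conditioning time and in the number of washes. RNA was extracted with the RNeasy kit from cells and with the Total Exosome RNA kit from EV. The fraction therefore cannot be told apart from the extraction kit, the RNase A treatment or the steps of EV collection in any comparison below.

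In the miR-17-92 cluster the host transcript, the non-coding RNA MIR17HG, is induced by MYC and E2F factors, and Drosha cuts the hairpins from it, which Dicer then trims to their mature strands. The products fall into seed families, in which miRNAs share the bases that pair with their targets: the miR-17 and miR-20a guide strands repress inhibitors of the cell cycle such as CDKN1A, the miR-18a guide is a close relative of them, and the miR-19 guides form a family of their own. The cluster is known for driving proliferation of progenitor cells in the developing nervous system and of many tumours.

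The 6 hairpins lie within 787 bases at chr13:91350605-91351391 of the plus strand (GRCh38). In GENCODE 29 they sit in an intron of the transcript MIR17HG-201 and in exons of MIR17HG-202 and MIR17HG-203. The deposited tables give other coordinates, and since they name no genome build those are not used here. The mature sequences of the members past the filter are printed 5′ to 3′ because the close relatives among them differ by very few bases, with the seed (bases 2 to 8) in capitals. All 10 members had an entry in RefSeq (GRCh38.p14), the source of these sequences. The miR-17 seed is carried by
miR-17-5p: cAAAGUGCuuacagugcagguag
miR-20a-5p: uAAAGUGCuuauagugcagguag
and the related miR-18a seed by
miR-18a-5p: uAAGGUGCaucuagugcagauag
The miR-19 seed is carried by
miR-19a-3p: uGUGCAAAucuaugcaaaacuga
miR-19b-3p: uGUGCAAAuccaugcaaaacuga
and the 3p arms of the miR-17 and miR-18a hairpins each have a seed of their own:
miR-17-3p: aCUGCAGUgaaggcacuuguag
miR-18a-3p: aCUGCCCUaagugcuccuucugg

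Counted from 1 at the 5′ end, miR-17-5p and miR-20a-5p differ at 2 positions (C1U and C12U, with the base of miR-17-5p first), and miR-19a-3p and miR-19b-3p differ at 1 position (U11C, with the base of miR-19a-3p first). Since the counting could split reads between such near copies, the separation of each pair is uncertain. The sequence of miR-19b-3p is encoded at 2 loci, in this cluster and on chromosome X, and reads from them cannot be separated.

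Depth, as the total count of miRNA reads, lay between 396025 and 3990900 in whole cells and between 1225541 and 3134561 in EV. Levels are given as CPM, the count scaled to a common library total. Where a miRNA was not detected, 3 counts were set as the limit of what could have been missed, which is 7.58 CPM in WC1 and at most 2.45 CPM in any other library, for counting error alone. Low counts were distributed differently in the groups. Counts of 1 to 9 were held by 298, 541 and 435 miRNAs in WC1, WC2 and WC3, and by 44, 28 and 25 in EV1, EV2 and EV3. Of the miRNAs past the filter, 111 (25.8%) were at 0 in 1 or 2 of the EV libraries while another EV library held at least 30 counts, and 3 (0.698%) showed this pattern among the whole cell libraries. Among the members, miR-17-3p and miR-18a-5p showed it in EV. Of the lists for the labelled cell type, the 6 miRNAs of Müller glia summed to 139482 to 140860 CPM in whole cells and to 79695 to 109575 CPM in EV. Of these 6, miR-125b-5p, the most abundant, was at a mean of 110495 CPM in whole cells and 49536 CPM in EV, and was not called. Over the list 4 had a log2 fold change above 0 (median 0.75), and 1, miR-204-5p, was called, lower. The 3 neuronal miRNAs summed to 1967 to 3310 CPM in whole cells and to 1834 to 2696 CPM in EV, with miR-124-3p at 0 in all libraries and the sum held by miR-128-3p and miR-138-5p. The 7 miRNAs of blood and serum summed to 164 to 1163 CPM in whole cells and to 1549 to 2312 CPM in EV. Each had a count in at least 1 EV library, while 3 were at 0 in every whole cell library. Most of the sum was miR-486-5p, at a mean of 734 CPM in whole cells and 1375 CPM in EV, which was not called. Of the 7, 3 passed the filter and 2 were called, both higher. The 2 endothelial miRNAs summed to 30.3 to 93.4 CPM in whole cells and 535 to 810 CPM in EV, and the 3 photoreceptor miRNAs to 227 to 333 and 1151 to 1218 CPM. Both endothelial miRNAs and 2 of the photoreceptor ones were called higher, while miR-96-5p was at 0 in EV1 and EV3 and was not called. The blood and serum, endothelial and photoreceptor sums were higher in EV in every library, as the miR-19 guides below were, and the part of these lists in the members' values was not tested.

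Together the 10 members took a small share of the reads. In whole cells they summed to 403 ± 275 CPM (SD, n = 3) and in EV to 561 ± 366 CPM (SD, n = 3). The groups overlapped, with 0.0720%, 0.0264% and 0.0225% of the total count in WC1, WC2 and WC3, and 0.0340%, 0.0983% and 0.0360% in EV1, EV2 and EV3. The sum was highest in WC1 and in EV2, and its makeup differed between the groups. In whole cells miR-20a-5p held 62.8%, 57.7% and 45.7% of the members' counts and miR-18a-3p held 9.12%, 22.3% and 33.7%. In EV miR-19b-3p held 36.0%, 38.2% and 30.6%, with miR-18a-3p at 0 and miR-20a-5p at 20.1%, 29.4% and 0.177%.

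**Figure D1:**
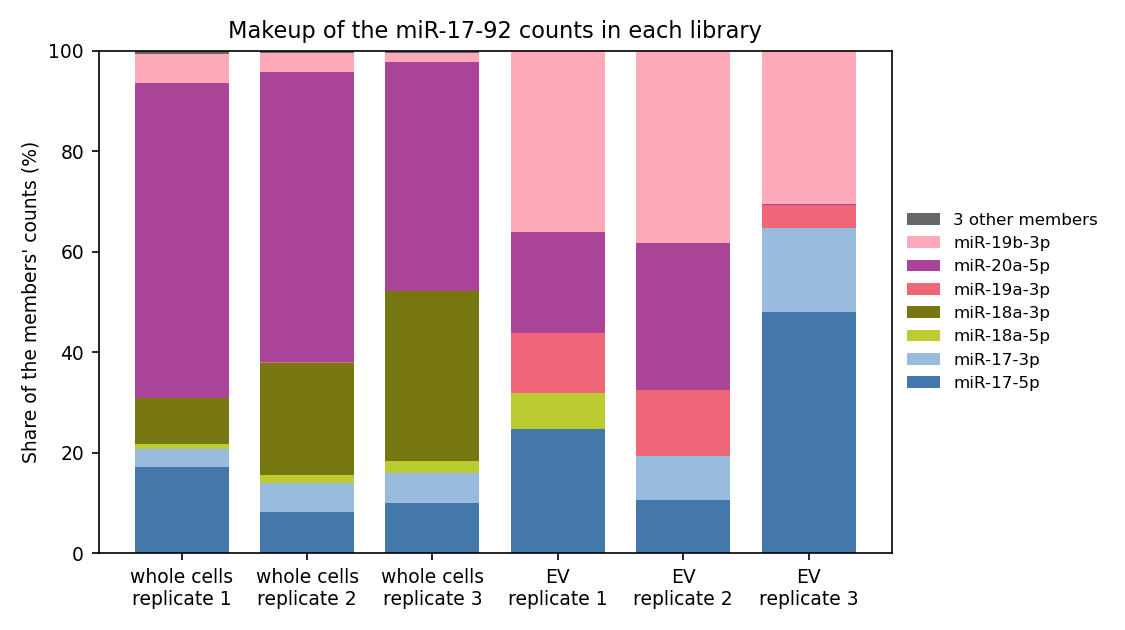
Share of the 10 members' summed counts (y axis, %) held by each member in each of the 6 libraries (x axis), with the 3 members of fewest counts combined. miR-20a-5p and miR-18a-3p fill most of each whole cell bar, and miR-19b-3p holds at least 30.6% of each EV bar.

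The order of the levels also differed. In whole cells miR-20a-5p came first at 236 ± 189 CPM (SD, n = 3), and its lowest library lay above the highest library of every other member except miR-17-5p. It was followed by miR-18a-3p, miR-17-5p, miR-19b-3p and miR-17-3p, and from miR-18a-3p down to miR-17-3p neighbours in this order overlapped. The next, miR-18a-5p, lay below miR-17-3p in every library and above miR-19b-1-5p, while the remaining members did not separate. In EV the order was miR-19b-3p, miR-17-5p, miR-20a-5p, miR-19a-3p, miR-17-3p and miR-18a-5p, and no neighbours in it were separated in all libraries. By mean CPM miR-20a-5p ranked 128 among all miRNAs in whole cells and 184 in EV, and miR-19b-3p ranked 306 in whole cells and 148 in EV.

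**Figure D2:**
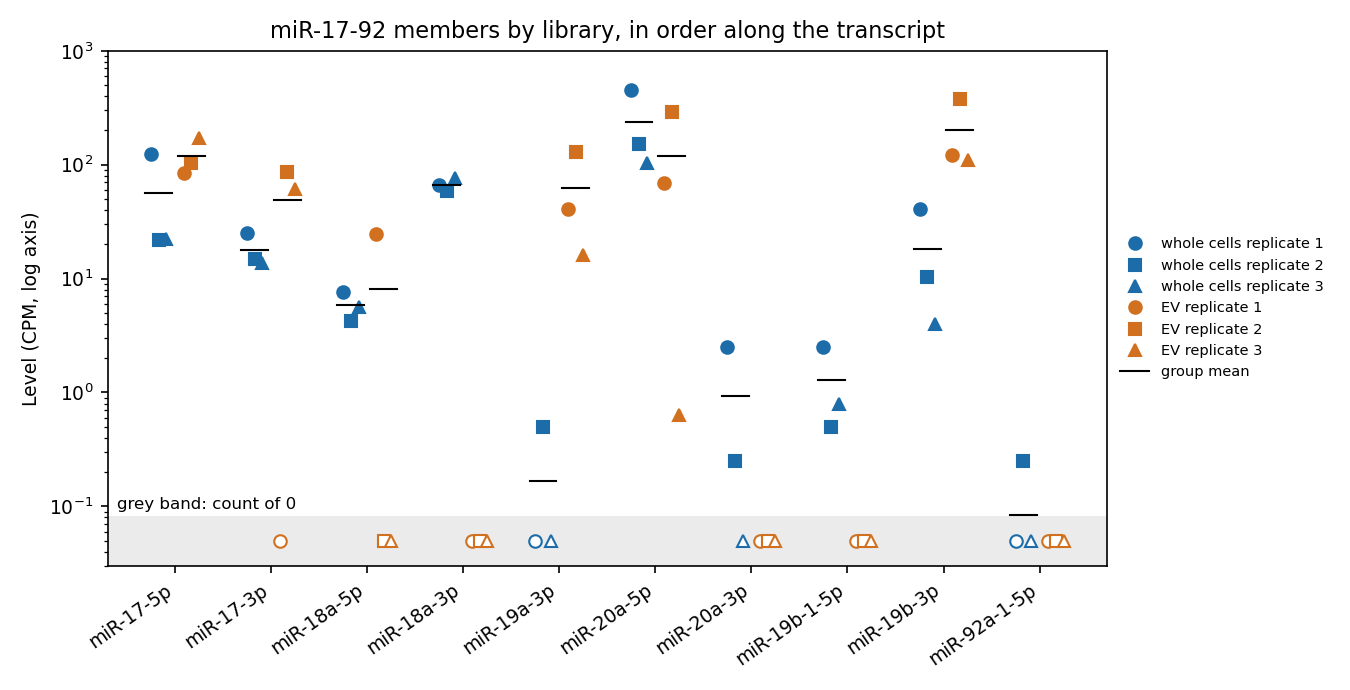
Level of each member (y axis, CPM, log scale) in the 6 libraries, with members in their order along the transcript (x axis). Points are single libraries, black lines are group means and open symbols in the grey band are counts of 0. Only miR-18a-3p and miR-19b-1-5p, which have a count in every whole cell library and in none of EV, and miR-19a-3p and miR-19b-3p, which lie higher in EV, show groups that do not overlap. For miR-19b-1-5p this rests on 1, 2 and 1 counts. Its levels in WC2 and WC3 are below the limit of 3 counts in every EV library, so its groups are not shown to be separate. The groups did not overlap for 48.4% of all tested miRNAs.

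To find which members differed between the fractions, edgeR's quasi-likelihood test was fitted over the 430 miRNAs that reached at least 5 CPM in at least 3 libraries, with Benjamini-Hochberg adjustment over all of them and calls at an adjusted p below 0.05. Of all miRNAs tested, 28.6% were called, 14.7% higher and 14.0% lower in EV. The filter kept 7 of the 10 members, and of these 2 were called higher (miR-19a-3p and miR-19b-3p), 1 was called lower (miR-18a-3p) and 4 were not called, to be read against that background. DESeq2 called these 3 members as well, among 34.7% of all miRNAs. miR-18a-3p passed the filter through the whole cell libraries alone and miR-19a-3p through the EV libraries alone, so that these had to differ. The 3 called members also passed a log2 fold limit of 2.5, as did 21.6% of all miRNAs, and they were the tested members whose groups did not overlap, as was so for 48.4% of all miRNAs. At an adjusted p below 0.01 with the fold limit of 2.5, which 5.81% of all miRNAs passed with edgeR, 0 members were called by edgeR. DESeq2 called 3 members at these limits. Its share of all miRNAs there was not computed, so this count has no background and is not read as a result about the members. With edgeR 3 members had an unadjusted p below 0.05, as had 154 of the 430 miRNAs tested. The counts are shares of each library, so a lower value cannot tell fewer copies per vesicle from fewer vesicles that carry the miRNA.

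**Figure D3:**
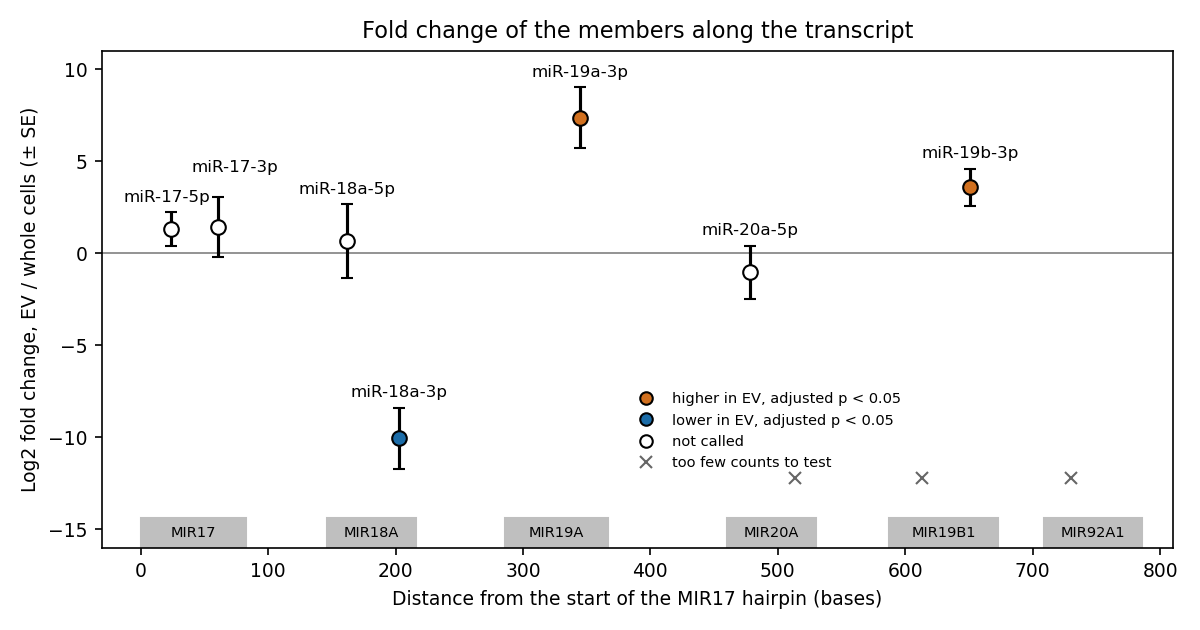
Log2 fold change of EV against whole cells (y axis, edgeR, bars are 1 SE) for the 7 tested members by their distance in bases from the start of the MIR17 hairpin (x axis), with the hairpins as grey boxes and crosses for the 3 members with too few counts. miR-19a-3p and miR-19b-3p lie above 0 and miR-18a-3p, at a fitted -10.05 that depends on the handling of its 0 counts in EV, lies far below its neighbours.

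The miR-19 guides were the members higher in EV. miR-19a-3p had 50, 262 and 50 counts in EV1, EV2 and EV3 against 0, 2 and 0 counts in WC1, WC2 and WC3. This came to 40.8, 129 and 16.0 CPM in EV against at most 0.501 CPM in a whole cell library. The lowest EV library lay far above the highest of whole cells, and 20.5% of all tested miRNAs were separated in this direction. Over the pooled counts of each group the ratio of EV to whole cells was 160, with a 95% interval of 43.8 to 1322 that covers counting error only and rests on 2 reads in whole cells. edgeR gave an adjusted p of 0.0144 with a log2 fold change of 7.36, and DESeq2 an adjusted p of 0.000190. Since miR-19a-3p passed the filter through the EV libraries alone, these p-values are not separate support for the difference. The call was lost without WC2 (adjusted p = 0.0837 by edgeR) and without WC3 (0.0827).

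miR-19b-3p had 150, 765 and 345 counts in EV and 16, 41 and 5 counts in whole cells, or 122, 375 and 110 CPM against 40.4, 10.3 and 3.99 CPM. EV3 was the lowest of the EV libraries and WC1 the highest of whole cells, and the groups did not overlap. The log2 fold change was 3.58 ± 1.02 (SE), with an adjusted p of 0.0377 by edgeR and 0.00313 by DESeq2. With RLE factors, upper-quartile factors or library totals in place of TMM the edgeR call was lost (adjusted p = 0.0635, 0.0607 and 0.0576), as it was without WC2, WC3 or EV2 (0.148, 0.124 and 0.120).

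Since both guides share the seed, their sum is the amount of that seed in a library, and the share of miR-19a-3p in it was compared as well. It was 25%, 25.5% and 12.7% of the pair's counts in EV1, EV2 and EV3, and 0%, 4.65% and 0% in WC1, WC2 and WC3. The whole cell shares rest on 16, 43 and 5 reads, so that 0 reads still allow a share of up to 18.8% in WC1 and 60.0% in WC3, above that of EV3 and above those of all EV libraries. The mean was 21.1% ± 7.28 in EV and 1.55% ± 2.69 in whole cells (SD, n = 3 each). An exact permutation test (two-sided) gave p = 0.1, the smallest value possible with 3 libraries a group, and 0.267 after adjustment over the 8 pairs tested.

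Of the strands with the miR-17 seed, miR-20a-5p led in whole cells, with 179, 607 and 129 counts in WC1, WC2 and WC3, or 452 CPM in the highest of them. In EV it had 84, 590 and 2 counts or 68.5, 289 and 0.638 CPM. EV3 was the deepest of the EV libraries and held the fewest reads of it, while EV2 lay within the range of whole cells. By edgeR it was at -1.03 ± 1.43 (log2 fold change and SE, adjusted p = 0.658), and 2 SE to either side reach from -3.90 to 1.84, so that neither a strong loss nor a gain in EV could be told from no change. The estimate was -2.72 without EV2, -0.45 without WC1 and -0.48 without EV3, with no call in any of these fits.

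miR-17-5p, the guide of the hairpin at the start of the cluster, had 49, 87 and 28 counts in whole cells, and in EV2 and EV3 it had 213 and 541 counts. The levels were 124, 21.8 and 22.4 CPM in whole cells and 84.0, 104 and 173 CPM in EV. The groups overlapped through WC1, the other whole cell libraries being below all EV libraries. With edgeR the estimate was 1.30 ± 0.92 (log2 fold change and SE, adjusted p = 0.372), and 2 SE to either side reach from -0.54 to 3.13.

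Within this pair the balance differed by library. miR-20a-5p made up 78.5%, 87.5% and 82.2% of the reads of both strands in whole cells and 44.9%, 73.5% and 0.368% in EV. No EV library reached the lowest whole cell library, and the EV libraries spread far more widely than the whole cell ones. The mean share was 82.7% ± 4.50 in whole cells and 39.6% ± 36.8 in EV (SD, n = 3 each; exact permutation test, two-sided, p = 0.1, adjusted 0.267). The difference of EV from whole cells was -43.1 percentage points with all libraries and -23.5 without EV3.

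**Figure D4:**
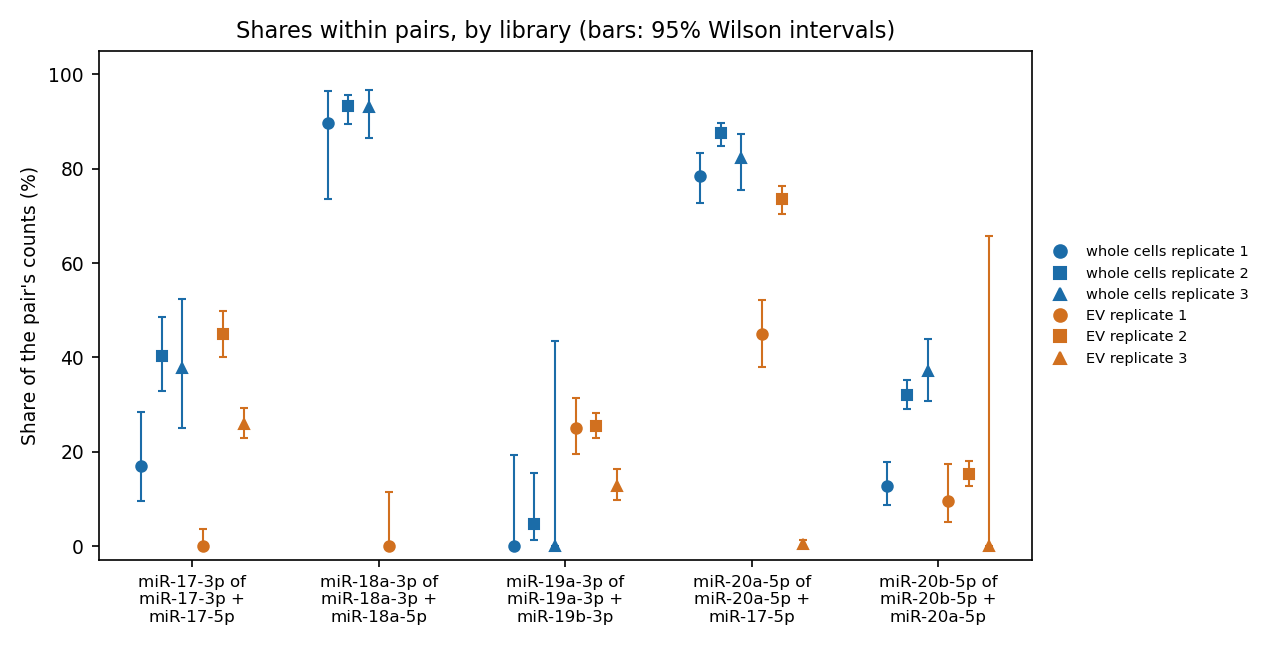
Share of the first-named miRNA in the summed counts of a pair (y axis, %) for 5 pairs (x axis) in each library, with bars for the 95% Wilson interval, which covers counting error only. For the arms of miR-18a, EV2 and EV3 had no reads of either arm and have no point. For miR-20a-5p with miR-17-5p the whole cell points lie between 78.5% and 87.5% and the EV points between 0.368% and 73.5%.

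The miR-18a hairpin gave the one member that was lower in EV, and that was its 3p arm, the strand usually discarded. miR-18a-3p had 26, 235 and 95 counts in whole cells, which is 65.7, 58.9 and 75.9 CPM, for its mean the narrowest spread that any of the 7 tested members had in whole cells. No EV library had a read of it. At the mean level of whole cells, 66.8 ± 8.55 CPM (SD, n = 3), 81.9, 136 and 209 reads would have been counted in EV1, EV2 and EV3. With 3 counts allowed in each EV library, a mean of 1.63 CPM, miR-18a-3p would be at least 41.1-fold lower in EV. That limit counts each read as a molecule and covers counting error only. It does not cover the pattern of 25.8% of tested miRNAs, which were at 0 in 1 or 2 EV libraries beside at least 30 counts in another. edgeR gave an adjusted p of 0.0112, with 0.00985 to 0.0429 over the fits that each left out 1 library, and DESeq2 gave 3.79e-08. Since miR-18a-3p passed the filter through the whole cell libraries alone, these p-values are not separate support for the difference. Every EV library was below all of whole cells for 27.9% of the tested miRNAs, and of the 43 tested miRNAs with a mean between 50 and 100 CPM in whole cells, 3 (6.98%) had 0 counts in all EV libraries and 25 (58.1%) had 0 in at least 1.

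The 5p arm, miR-18a-5p, is usually the guide strand, but it had 3, 17 and 7 counts in whole cells, or 7.58, 4.26 and 5.59 CPM. In EV it had 30 counts (24.5 CPM) in EV1 and 0 in EV2 and EV3. The estimate from edgeR was 0.64 ± 2.01 (log2 fold change and SE, adjusted p = 0.859), and its direction rested on EV1, without which it was -6.65 with an adjusted p of 0.0130. Since EV2 and EV3 were both at 0, the size of that value depends on the handling of 0 counts. Of the reads of both arms, miR-18a-3p held 89.7%, 93.3% and 93.1% in WC1, WC2 and WC3, with Wilson 95% intervals of 73.6 to 96.4%, 89.5 to 95.7% and 86.5 to 96.6%. In EV1 it held 0 of 30 reads, which allows a share of up to 10.0%. With reads of this hairpin in a single EV library, the arms were not tested.

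miR-17-3p, the other arm of the miR-17 hairpin, had 10, 59 and 17 counts in whole cells, and 0, 174 and 190 counts in EV. The CPM were 25.3, 14.8 and 13.6 in whole cells and 0, 85.4 and 60.6 in EV, so that 2 EV libraries lay above all whole cell libraries and 1 below them. The estimate was 1.41 ± 1.64 (log2 fold change and SE, edgeR, adjusted p = 0.596). EV1, which had no read of miR-17-3p, had 84.0 CPM of miR-17-5p. As a share of both arms miR-17-3p held 16.9%, 40.4% and 37.8% in whole cells and 0%, 45.0% and 26% in EV (exact permutation test, two-sided, p = 0.7). The difference of EV from whole cells in the mean share was -8.06 percentage points with all libraries and 3.76 without EV1.

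The 3 members that did not pass the filter were other arms with almost no reads. miR-19b-1-5p had 1, 2 and 1 counts in whole cells, miR-20a-3p had 1, 1 and 0, miR-92a-1-5p had 0, 1 and 0, and all had 0 in every EV library. At this depth a difference in level between the groups could not be judged for any of these 3. For miR-19b-1-5p the share of the reads it makes up with miR-19b-3p was 5.88%, 4.65% and 16.7% in whole cells and 0% in EV, where 0 reads allow up to 2.0%, 0.392% and 0.870% (exact permutation test, two-sided, p = 0.1, adjusted 0.267). The count of miR-19b-3p includes the locus on chromosome X, so this is not the ratio of the arms of 1 hairpin. The whole cell shares rest on 17, 43 and 6 reads. Their Wilson 95% intervals begin at 1.05%, 1.28% and 3.01%, so that the EV1 limit of 2.0% lies within those of WC1 and WC2.

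Base composition went with the direction of the called members, but not of every member. Mature sequences were found in RefSeq for 390 (90.7%) of the 430 tested miRNAs, and over these the log2 fold change and GC content had a Pearson correlation of -0.35, given as a description across miRNAs, which are not independent. The 99 sequences with at most 40.9% GC had a median log2 fold change of 1.22, and those with at least 56.5% GC had a median of -1.27. miR-19a-3p (34.8% GC) and miR-19b-3p (39.1%) belong to the former and miR-18a-3p (56.5%) to the latter. miR-20a-5p, at 39.1% GC, is also among the sequences with at most 40.9% GC, but its log2 fold change was -1.03 and it was not called. With the trend on GC content removed, an alternative chosen after seeing the data, the log2 fold change was 5.23 for miR-19a-3p (edgeR, adjusted p = 0.0524), 2.19 for miR-19b-3p (0.108) and -9.52 for miR-18a-3p (0.0168), so that only the last kept its call, and miR-20a-5p was at -2.45 (0.303). The motifs GGAG and GGCU, which have been described for the sorting of miRNAs into EV, searched on the strand of the miRNA, were in 0 of the 10 members, and in 10.5% and 14.4% of the tested miRNAs with a sequence.

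**Figure D5:**
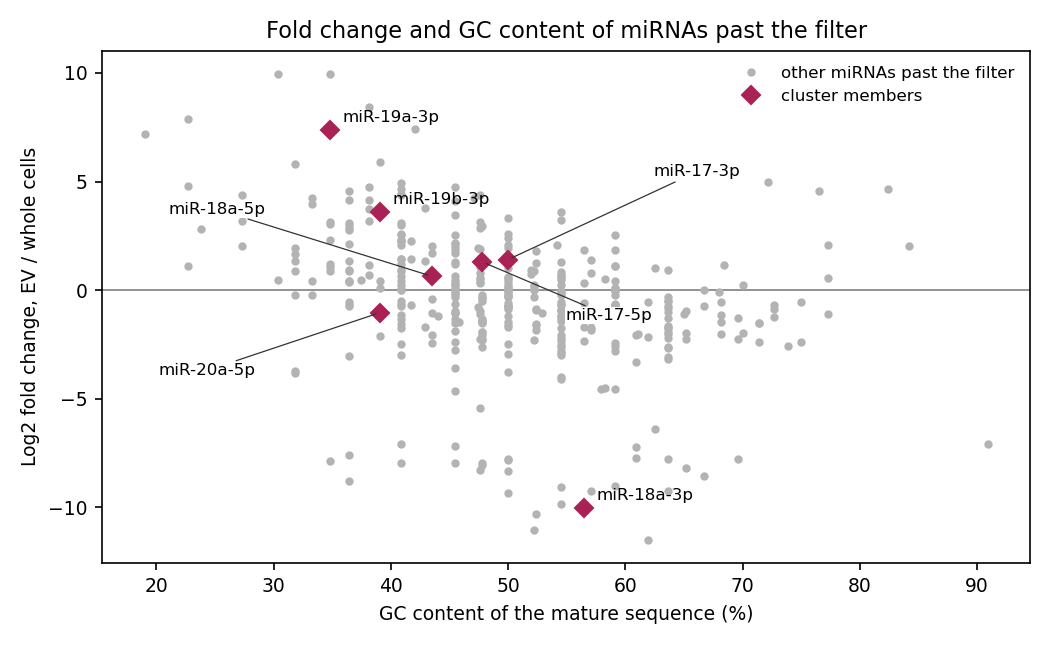
Log2 fold change of EV against whole cells (y axis, edgeR) by GC content of the mature sequence (x axis, %) for the 390 tested miRNAs with a sequence, with the 7 tested members as diamonds. miR-19a-3p and miR-19b-3p stand at 34.8% and 39.1% GC among miRNAs that lie mostly above 0, and miR-18a-3p stands at 56.5% GC.

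The other products of the cluster, of its copies on chromosomes X and 7 and of the same seed families were described from a list of 22 names, of which 12 passed the filter. Of these, 0 were called higher and 2 lower in EV by edgeR, which called 14.7% of all tested miRNAs higher and 14.0% lower, so that the share called lower is near that of all miRNAs. DESeq2 called 4 lower, against 19.8% of all. All 12 had a log2 fold change below 0, as had 232 of the 430 tested miRNAs, with a median of -1.42 against -0.23. With the trend on GC content removed 7 of the 12 were below 0 and the median was -0.17. With an unadjusted p below 0.05, miR-106b-3p was added to the miRNAs lower in EV. The 2 that were called lower both carry the miR-92 seed, as does miR-25-3p, which edgeR did not call. miR-92a-3p, the most abundant product of the miR-17-92 transcript but also encoded on chromosome X, had 17562, 29143 and 30353 CPM in whole cells and 2620, 6943 and 4827 CPM in EV. It was at -2.51 ± 0.46 (log2, SE, edgeR, adjusted p = 0.0107), and together with the 10 members it held 2.61% of all whole cell counts and 0.536% of those in EV. miR-92b-3p, from chromosome 1, was at -1.76 ± 0.49 (log2, SE, edgeR, adjusted p = 0.0323), and kept its call in 2 of the 6 fits that each left out 1 library. It was called without WC1 and without EV2, and the highest adjusted p, 0.0942, came without WC3. Its other arm, miR-92b-5p, was at -0.70. With the trend on GC content removed neither miR-92a-3p (-1.06) nor miR-92b-3p (0.27, a change of sign) was called.

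From the copy on chromosome X, miR-20b-5p differs from miR-20a-5p at 2 positions (U1C and U10C, with the base of miR-20a-5p first). Their sequences are shown together with that of miR-106a-5p, which differs from miR-17-5p at 1 position (C1A, with the base of miR-17-5p first), since these are the relatives with which a misassigned read is most likely.
miR-20b-5p: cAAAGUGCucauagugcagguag
miR-106a-5p: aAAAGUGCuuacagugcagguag

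miR-20b-5p was at 65.7, 71.9 and 60.7 CPM in whole cells and at 7.34, 52.0 and 0 CPM in EV, with its 0 in EV3 beside the 2 reads of miR-20a-5p there. edgeR put it at -1.94 ± 1.70 (log2 fold change and SE, adjusted p = 0.477). As a share of the reads of miR-20a-5p and miR-20b-5p it held 12.7%, 32.1% and 37.1% in whole cells and 9.68%, 15.2% and 0% in EV, the last from 2 reads (exact permutation test, two-sided, p = 0.2). miR-106a-5p had 2, 4 and 0 counts in whole cells and 20, 9 and 13 in EV, and its share with miR-17-5p ran from 0% to 4.40% across whole cells and from 2.35% to 16.3% across EV (p = 0.5, same exact test). The other tested products of chromosome X were miR-18b-3p at -0.75 and miR-363-3p at -1.13 on the log2 scale, and neither was called. The value of miR-18b-3p rested on EV1, the 1 EV library with reads of it, without which it was at -7.30 (edgeR, adjusted p = 0.0130). The size of that value depends on the handling of its 0 counts in EV2 and EV3.

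The 10 members leave out miR-92a-3p, at a mean of 25686 CPM in whole cells and 4797 CPM in EV. By contrast miR-25-3p, at 12704 and 7943 CPM, is counted in the copy on chromosome 7. That copy was far more abundant than the 10 members alone. Its strand with the miR-17 seed, miR-93-5p, was at 7296 ± 1545 CPM in whole cells and 6078 ± 1897 CPM in EV (SD, n = 3 each), and edgeR put it at -0.32 ± 0.38 (log2 fold change and SE, adjusted p = 0.610). miR-106b-5p, with the same seed, had 58.1, 10.0 and 16.0 CPM in whole cells and 0, 27.5 and 0 in EV, and was not called at -1.70 ± 2.02. Without EV2, the 1 EV library with reads of miR-106b-5p, it was at -8.68 (edgeR, adjusted p = 0.0255), a size that depends on the handling of its 0 counts in EV1 and EV3. miR-25-3p, with the miR-92 seed, was at -0.73 ± 0.35 (edgeR, adjusted p = 0.184, and 0.0276 without WC1). Among the other arms, miR-106b-3p was at -2.01 (edgeR, adjusted p = 0.0700, and 0.0379 without WC1 and 0.0306 without EV1), miR-25-5p at -1.83 and miR-93-3p at -0.69, and none was called with all libraries.

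As a description only, patterns were compared over 2 groups of libraries that differ in fraction, extraction kit, RNase A treatment and EV collection. The miRNAs whose pattern over the 6 libraries was most like that of a member were found by Pearson's correlation of log2(CPM + 4). For miR-17-5p they were miR-337-5p (0.982), miR-218-5p (0.981) and miR-27b-3p (0.941), all of which, like miR-17-5p, had their highest whole cell value in WC1 and their highest EV value in EV3. For miR-19a-3p they were miR-192-5p (0.995), miR-4532 (0.987) and miR-889-3p (0.986), and each had its highest value in EV2 and its lowest EV value in EV3. The closest relative by seed, miR-19b-3p, is a member and was not among those compared.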

How the data were processed

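Adapters were trimmed with Cutadapt and reads aligned by the authors, and the deposited tables hold raw counts of reads per mature miRNA. Per the file headers these counts come from featureCounts 1.5.0-p1 (strand setting 1) on miRBase release 20 and a Bowtie 1 alignment, while the methods name Bowtie2 and release 21. No removal of duplicate molecules is stated, so that intervals cover counting error only.

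Samples were grouped by the fraction in their labels. No library was a copy of another (smallest chi-square per degree of freedom within a group 21.5). CPM used each table's total. Counts were scaled by TMM (factors 0.896 to 1.20) and tested with edgeR 4.0.16 in R 4.3.3, with DESeq2 1.42.0 as an alternative. The SE is the log2 fold change divided by the square root of F. Shares within pairs were tested by exact permutation, two-sided (scipy 1.17.1). All 10 members, and listed relatives with at least 5 CPM in 3 libraries, are named. The likeness used log2(CPM + 4) on TMM-scaled counts. The fits were tested on simulated data with a lower dispersion than the 0.918 of these data, which does not show how they perform at this spread. The members and lists were chosen with earlier results of these data known. Alternatives covered tool, scaling, filter, thinning, thresholds and each library left out. The GC trend was a loess fit per library (span 0.5) taken as an offset. Motifs were searched as written.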

Additional observations from a re-analysis of the deposited data

How the results depend on the processing

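No paired analysis was possible because the replicate numbers were given here and not in the labels. Of 97 log2 fold changes of members under an alternative, 85 kept their direction and their side of the threshold, 10 lost the call and 2 changed sign. Of the counts of calls, 71 stayed within 1.5 times and 25 did not. The cause was not tested. Members called higher numbered 2, and 1 with RLE factors, upper-quartile factors or library totals (miR-19b-3p at 3.25, 3.32 and 3.53), 0 with the GC trend removed (miR-19a-3p at 5.23, miR-19b-3p at 2.19, miR-18a-5p reversed to -0.09) and 0 at the stricter limits, which also left 0 lower. With a library left out, 0 to 2 members were higher and 1 to 2 lower. These fits gave log2 fold changes of -6.65 to 1.09 for miR-18a-5p, 6.29 to 9.51 for miR-19a-3p and 2.78 to 4.49 for miR-19b-3p, and a difference of -18.7 to 3.76 percentage points for miR-17-3p in its arms. The -6.65 depends on the handling of the 0 counts of miR-18a-5p in EV2 and EV3. Of all tested miRNAs, 63 were higher and 60 lower. With the GC trend removed, which also leaves out the 40 miRNAs with no sequence, 35 of 390 were higher, where the fit to all 430 called 53 of these 390. They numbered 19 higher and 6 lower at the stricter limits, 182 lower with no filter, 34 lower with at least 10 counts in 3 libraries, and 29 to 65 higher and 45 to 85 lower with a library left out. Of the relatives, 2 were lower, 4 with DESeq2, 0 with the GC trend removed, 1 and 0 with a fold limit of 2.5 at an adjusted p below 0.05 and 0.01, and 1 to 4 with a library left out. With miR-92a-3p the share of the cluster was 2.61% in whole cells and 0.536% in EV. RLE factors and DESeq2 shifted the median over all miRNAs by -0.18 and removal of the GC trend by 0.11. Depth limits miR-18a-5p, with at most 30 counts in a library, and the 3 untested members most.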
